A study of Mus musculus with 9 samples.

Results

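The genes described are 54 components of the WNT pathway, followed across sorted cells of mouse neural tube organoids. They were chosen by name, with earlier results of these data known. They are 19 WNT ligands, 12 receptors (10 Frizzled genes, Lrp5 and Lrp6), 11 secreted inhibitors and 4 R-spondins. The rest are the R-spondin receptor gene Lgr5, the ubiquitin ligase genes Rnf43 and Znrf3, and 5 feedback targets or nuclear factors. All 54 were found among the 54532 genes of the deposited counts, and 47 passed the low-count filter and were tested. The organoids grew clonally in Matrigel from R1 mouse embryonic stem cells that carry FoxA2-Venus, a fluorescent reporter of Foxa2, in N2B27 medium, so each group shares the line, the reporter and the basal medium. Medium was changed at Day 2, and cells were taken 66 h later and sorted with a GFP filter set. The 3 groups, with 3 biological replicates each, were GFP- cells from medium with all-trans retinoic acid (RA GFP-), GFP+ cells from the same kind of medium (RA GFP+) and GFP+ cells from medium with SAG, a Smoothened agonist (SAG GFP+). For RA, 250 nM is stated in one source and 250 µM in another. The SAG dose is not given in the sources used here, and GFP- cells from SAG medium were not analysed here. The model is a single embryonic stem cell line, and the labels do not say how many organoids made up a replicate or whether replicates were grown on separate days.

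WNT proteins are lipid-modified secreted signals. They bind Frizzled receptors together with Lrp5 or Lrp6, which stabilises beta-catenin and lets it act with TCF/LEF factors on target genes, several of which (Axin2, Nkd1, Notum, Rnf43, Znrf3) restrain the signal in turn. Sfrp proteins and Wif1 bind WNT proteins outside the cell, Dkk1 and Dkk2 block the Lrp receptors, and R-spondins protect Frizzled receptors from Rnf43 and Znrf3. In the embryo, WNT signals from the dorsal midline pattern the neural tube, and posterior WNT signals help to set its head-to-tail axis.

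Total counts ran from 25281871 to 29763765 per library, which were stranded poly(A) RNA libraries. Foxa2 stood at 1.33 to 2.51 CPM (counts scaled to library size) in RA GFP-, 133 to 184 in RA GFP+ and 205 to 326 in SAG GFP+ libraries, which is the direction of the sort. Floor plate markers summed to 152 to 203 CPM in RA GFP-, 670 to 959 in RA GFP+ and 757 to 877 in SAG GFP+ libraries. Neural progenitor markers summed to 956 to 1094, 328 to 471 and 895 to 1014 CPM in the same order, so neural markers were present in each group. Of these 6 markers, 5 fell by sort and rose under SAG, while Pax6 fell in both comparisons. Endoderm markers summed to 6.48 to 7.20, 51.4 to 82.0 and 3.45 to 8.11 CPM (with Afp and Ttr at 0 in RA GFP- and Afp at 0 in SAG GFP+ libraries). Mesoderm and mesenchyme markers summed to 21.2 to 29.8, 89.6 to 115 and 43.6 to 61.1 CPM, with Osr1 at 0 in SAG GFP+ libraries. Pluripotency markers summed to 816 to 1229, 59.3 to 72.7 and 62.8 to 233 CPM. One library stood apart in genes that bear on WNT signals. Replicate 1 of SAG GFP+ held 110 CPM of the mesoderm and notochord gene T, against 7.94 and 9.81 CPM in SAG GFP+ replicates 2 and 3. Its sum for the pluripotency list (233 CPM) was the highest of its group. So was its sum for the notochord list (128 CPM), but that list counts T itself. Results that rest on it are given with and without it. In sorted bulk RNA, fewer cells of a type and less RNA per cell cannot be told apart.

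Many members differed between the groups. A gene is called higher or lower where its adjusted p is under 0.05 in edgeR's quasi-likelihood test (Benjamini-Hochberg adjustment over 16772 genes), and "rose" and "fell" are used of called genes. In RA GFP+ against RA GFP- cells, 18 members were higher and 5 lower of 47 tested. That is 48.9% called, where 16.9% of all tested genes were (8.49% higher and 8.43% lower). In SAG GFP+ against RA GFP+ cells ("under SAG" from here on), 7 were higher and 20 lower, or 57.4% called against 24.5% of all genes (9.78% higher and 14.8% lower). By its labels the SAG medium holds SAG in place of RA. "Under SAG" thus means RA left out and SAG added at once, which cannot be told apart. In SAG GFP+ against RA GFP- cells, 10 were higher and 13 lower, or 48.9% against 28.5% (12% higher and 16.5% lower). Groups did not overlap for 32 of the 47 members by sort (68.1%, against 36.4% of all genes) and for 30 under the change from RA to SAG (63.8%, against 42.9%), and for 25 in SAG GFP+ against RA GFP- cells, where 41.1% of all genes did not overlap. The median log2 fold change of the members was 0.47 by sort and -0.68 in SAG GFP+ against RA GFP+ cells, beside medians of -0.018 and -0.017 over all genes. These comparisons share libraries (RA GFP+ in the first pair, SAG GFP+ and RA GFP- with the last), so a gene that is high in RA GFP+ cells alone is called in opposite directions in the first pair. Of the 47 members, 12 (25.5%) were higher by sort and lower under SAG, as were 4.04% of all tested genes.

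**Figure D1:**
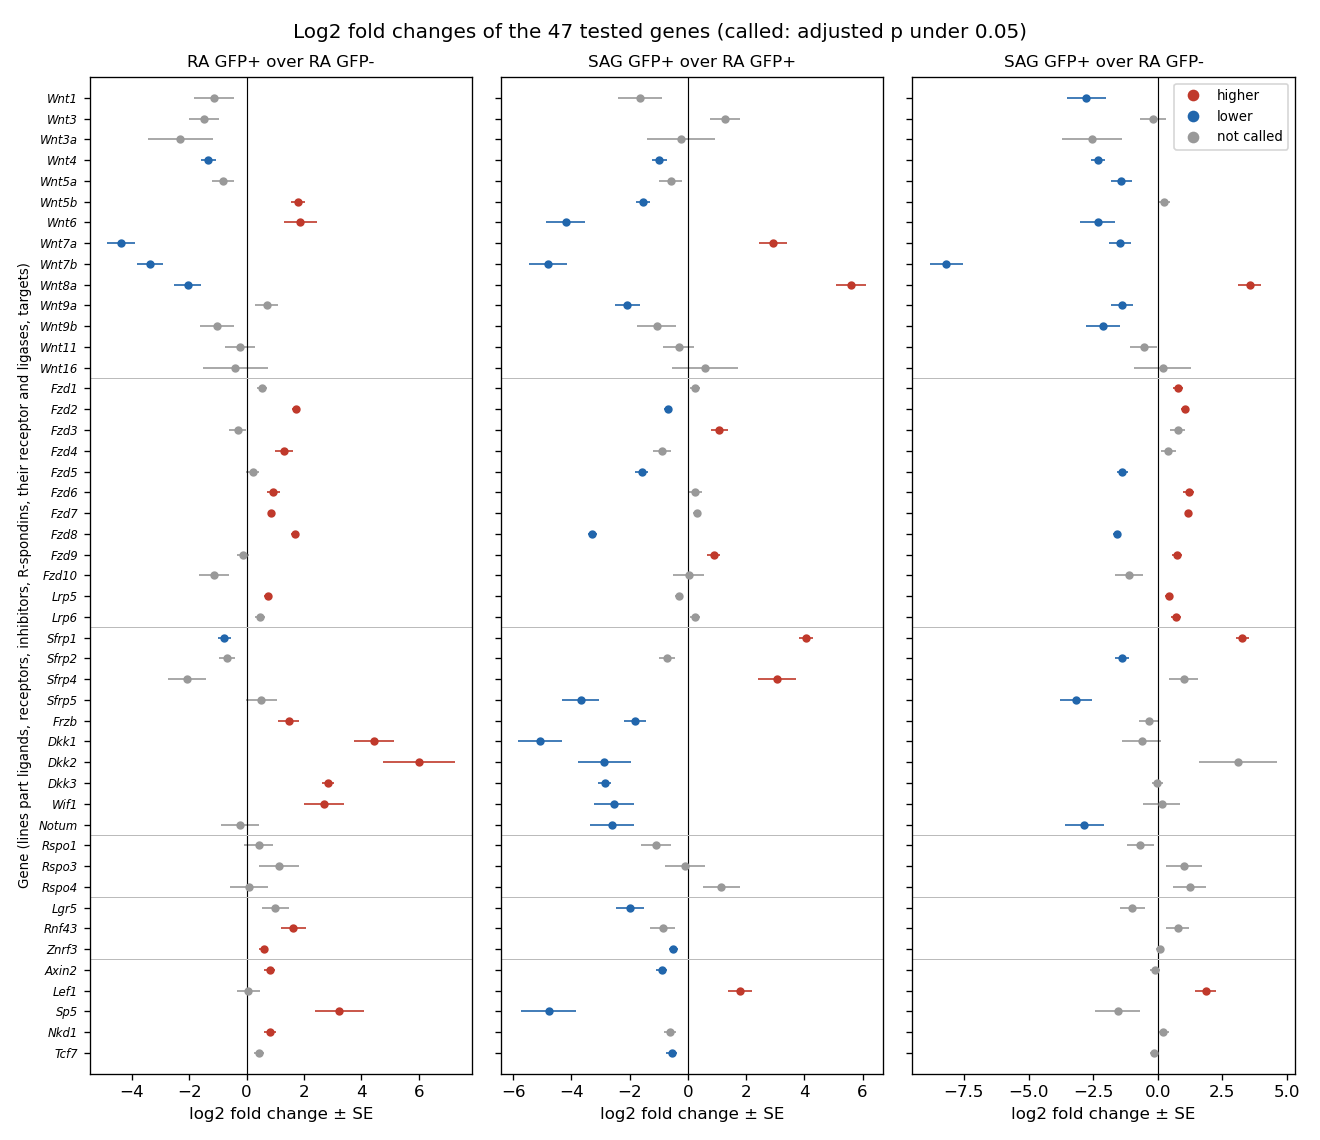
Log2 fold change (x axis) with its standard error for the 47 tested members (y axis, grouped by role) in the 3 comparisons. Red points are called higher, blue points lower and grey points not called. Dkk1 and Sp5 lie far to the right by sort (4.44 and 3.24) and far to the left in SAG GFP+ against RA GFP+ cells (-5.07 and -4.78).

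The replicate number was also used as a block in the 6 RA libraries, where the numbers were taken to pair the samples. That pairing rests on correlations in these counts, not on the labels. With the block, 23 members were higher and 11 lower of 45 tested, and 32.2% of all genes were called. All 23 members called without the block remained called. The 11 gained were Wnt9a (blocked adjusted p = 0.0326), Fzd1 (0.0085), Lrp6 (0.0135), Lgr5 (0.0163) and Tcf7 (0.00655), which were higher, and Wnt1 (0.0106), Wnt3 (0.00296), Wnt3a (0.00221), Wnt5a (0.0154), Fzd10 (8.47e-05) and Sfrp2 (0.0445), which were lower. Without replicate 1 of RA GFP+, 15 members were called by sort (10 higher and 5 lower, of which 14 were among the 23), and 11.2% of all genes were. Without replicate 1 of SAG GFP+, 35 members were called in SAG GFP+ against RA GFP+ cells (9 higher and 26 lower, of which 26 were among the 27), and 28.6% of all genes were.

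Each group had its own leading ligand: Wnt7b in RA GFP-, Wnt5b in RA GFP+ and Wnt8a in SAG GFP+ cells, in all 3 libraries of each. Levels of different genes are compared in CPM per kb of exon. On that scale the 19 ligand genes summed to 31.6 to 33.2 in RA GFP-, 19.7 to 23.4 in RA GFP+ and 25.6 to 85.2 in SAG GFP+ libraries. Wnt7b made up 14.7 to 22.6% of the sum in RA GFP- libraries, Wnt5b 42.7 to 51.6% in RA GFP+ libraries and Wnt8a 68.7 to 82.9% in SAG GFP+ libraries. In RA GFP- cells 10 ligands reached 1 CPM per kb in the group mean, and in each GFP+ group 5 did.

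**Figure D2:**
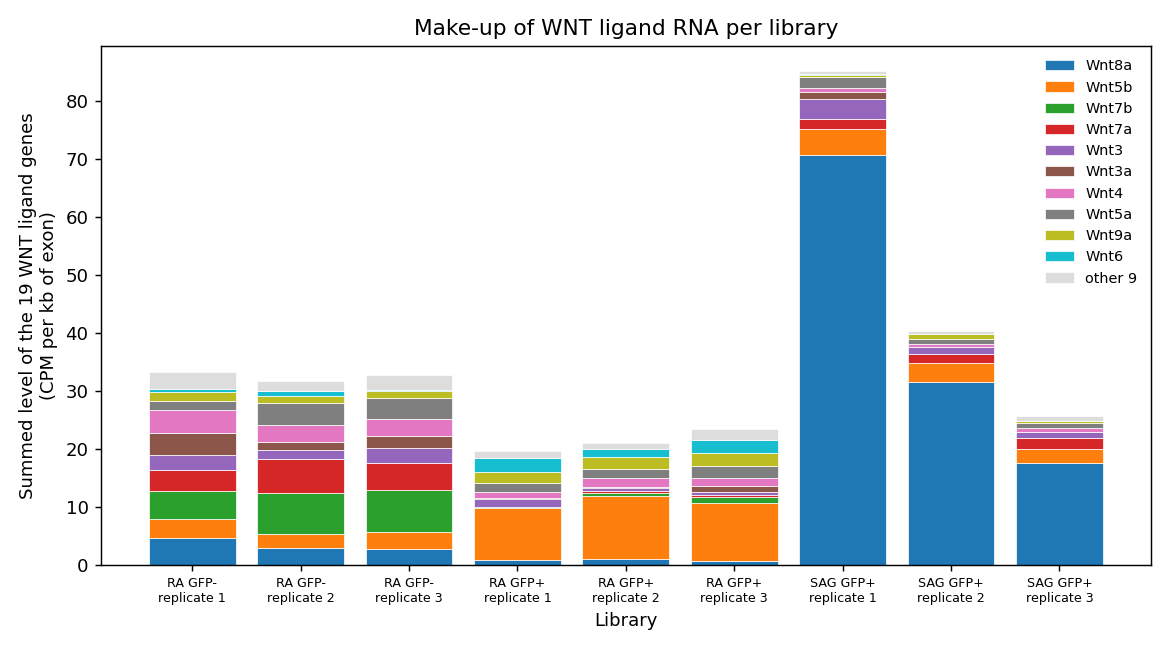
Summed level of the 19 WNT ligand genes in each of the 9 libraries (y axis, CPM per kb of exon), split by gene. RA GFP- libraries are a mix led by Wnt7b, RA GFP+ libraries are led by Wnt5b, and Wnt8a takes 68.7 to 82.9% of SAG GFP+ libraries, whose sums run from 25.6 to 85.2.

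Among the ligands lower by sort were the Wnt7 pair, known from neural progenitors. Values in every library are given in the order of replicates 1 to 3. Wnt7b (chromosome 15, 85535437 to 85582473, minus strand of GRCm38) had values of 23.97, 34.9 and 35.2 CPM in RA GFP-, 1.18, 2.59 and 5.27 in RA GFP+, and 0.0407, 0.0749 and 0.195 in SAG GFP+ libraries. The groups did not overlap, and the last values rest on 1, 2 and 5 counts. It fell by 3.37 by sort (log2 fold change, SE 0.45, adjusted p = 0.000467) and by a further 4.80 in SAG GFP+ against RA GFP+ cells (SE 0.65, adjusted p = 0.000321). Wnt7a (chromosome 6, 91363981 to 91411363, minus strand) stood at 11.5, 18.7 and 14.7 CPM in RA GFP-, 0.157, 0.739 and 1.22 in RA GFP+, and 5.34, 5.09 and 5.96 in SAG GFP+ libraries. Its groups did not overlap either, but RA GFP+ was the lowest group, and SAG GFP+ lay between the others. Wnt7a fell by 4.38 by sort (SE 0.49, adjusted p = 0.000142), and it was 2.93 higher in SAG GFP+ than in RA GFP+ cells (SE 0.47, adjusted p = 0.000956). Thus both genes were at their lowest in different groups. The neural progenitor sums given above were lowest in RA GFP+ libraries, as Wnt7a was, although Pax6 was lowest in SAG GFP+ libraries. Neuron markers summed to 285 to 408 CPM in RA GFP-, 75.7 to 86.6 in RA GFP+ and 346 to 566 in SAG GFP+ libraries. The part of these markers in the Wnt7 results was not tested. Leaving out replicate 3 of RA GFP+, which held the highest value of its group for both genes, gave log2 fold changes by sort of -5.01 for Wnt7a and -4.04 for Wnt7b, and of 3.56 and -4.13 in the other comparison. Without replicate 3 of SAG GFP+, Wnt7b gave -5.58 there.

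Wnt4 and Wnt8a also fell by sort. Wnt4 stood at 16.7, 11.9 and 11.8 CPM in RA GFP-, 3.998, 6.35 and 5.58 in RA GFP+, and 2.73, 2.14 and 3.23 in SAG GFP+ libraries, with no overlap between groups. It fell by 1.34 by sort (SE 0.26, adjusted p = 0.00493) and by 0.98 in SAG GFP+ against RA GFP+ cells (SE 0.27, adjusted p = 0.0215). The latter call did not survive leaving out replicate 2 of RA GFP+ (adjusted p = 0.0929), replicate 3 of RA GFP+ (0.0512) or replicate 2 of SAG GFP+ (0.0999). Wnt8a, a ligand known from the primitive streak and posterior embryo, stood at 7.98, 5.07 and 4.80 CPM in RA GFP-, 1.37, 1.81 and 1.08 in RA GFP+, and 123, 55.1 and 30.7 in SAG GFP+ libraries. All SAG GFP+ libraries lay above all others, with replicate 1 the highest. Wnt8a fell by 2.06 by sort (SE 0.47, adjusted p = 0.0111) and rose by 5.61 in SAG GFP+ against RA GFP+ cells, a 48.7-fold difference (SE 0.51, adjusted p = 2.3e-05). Without replicate 1 of SAG GFP+, the library with 110 CPM of T, the log2 fold change was 4.93 (adjusted p = 6.54e-06).

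Wnt5b and Wnt6 went the other way. Wnt5b (chromosome 6, 119432531 to 119544347, minus strand), a ligand known mainly for signals that do not use beta-catenin, stood at 8.61, 6.21 and 7.88 CPM in RA GFP-, 23.6, 28.8 and 26.5 in RA GFP+, and 12.1, 8.58 and 6.35 in SAG GFP+ libraries. RA GFP+ libraries lay above all others, while RA GFP- and SAG GFP+ overlapped. It rose 3.47-fold by sort (log2 fold change 1.80, SE 0.24, adjusted p = 0.000512) and fell by 1.55 on the log2 scale under SAG (SE 0.24, adjusted p = 0.000748). Wnt6, known from surface ectoderm, stood at 1.13, 1.79 and 0.723 CPM in RA GFP-, 5.41, 3.23 and 4.71 in RA GFP+, and 0.570, 0.0375 and 0.117 in SAG GFP+ libraries. The 3 groups did not overlap. Its rise by sort (1.87, SE 0.58, adjusted p = 0.0453) was lost when any of the 6 RA libraries was left out (adjusted p = 0.0561 to 0.134). Under SAG it fell by 4.20 (SE 0.68, adjusted p = 0.000997), or by 5.76 without replicate 1 of SAG GFP+. Surface ectoderm markers summed to 24.4 to 33.7, 7.92 to 10.7 and 3.50 to 7.13 CPM in the same order of groups, with Krt14 at 0 in both GFP+ groups. Within that list Trp63 was called higher by sort and lower under SAG, as Wnt6 was, while Grhl3 and Tfap2a fell by sort. The part of surface ectoderm cells in the Wnt6 values was not tested.

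Wnt9a was not called by sort and fell under SAG. It stood at 5.01, 4.08 and 3.77 CPM in RA GFP-, 6.51, 6.52 and 7.88 in RA GFP+, and 0.692, 2.96 and 1.25 in SAG GFP+ libraries (-2.09 in SAG GFP+ against RA GFP+ cells, SE 0.43, adjusted p = 0.00458, and -2.81 without replicate 2 of SAG GFP+). The dorsal midline ligands Wnt1 and Wnt3a were not called in either of these comparisons, although Wnt1 passed under SAG without replicate 3 of SAG GFP+ (adjusted p = 0.0499). Wnt3a stood at 10.5, 4.11 and 5.98 CPM in RA GFP-, 0.745, 0.605 and 2.79 in RA GFP+, and 3.50, 0.0375 and 0 in SAG GFP+ libraries. replicate 1 of SAG GFP+ thus held nearly all Wnt3a of its group. With all libraries Wnt3a gave -2.31 by sort (SE 1.13, adjusted p = 0.203), -0.24 under SAG (SE 1.16, adjusted p = 0.905) and -2.55 in SAG GFP+ against RA GFP- cells (SE 1.16, adjusted p = 0.121). Without that library it was called lower in each (adjusted p = 0.0161, 0.0055 and 0.000437). SAG GFP+ then held 1 count of Wnt3a, and the ratio of counts was 73 for RA GFP+ over SAG GFP+ (exact 95% interval 12.8 to 2908, counting error only). Wnt3, a close relative, stood at 7.73, 4.38 and 7.88 CPM in RA GFP-, 3.96, 1.78 and 1.46 in RA GFP+, and 10.7, 3.67 and 3.04 in SAG GFP+ libraries. Its difference by sort (-1.48, SE 0.52, adjusted p = 0.0775) passed without replicate 1 of RA GFP+ (0.0394) or replicate 1 of SAG GFP+ (0.022), and its difference under SAG (1.28, SE 0.52, adjusted p = 0.0979) passed without replicate 1 of RA GFP+ (0.0451). In all, the former passed under 7 and the latter under 5 of 16 alternatives, with DESeq2 among them (0.0193 and 0.0411). Wnt5a gave -0.83 by sort (SE 0.39, adjusted p = 0.184) and -0.59 under SAG (SE 0.39, adjusted p = 0.309, and 0.0236 without replicate 1 of SAG GFP+). Wnt9b, Wnt11 and Wnt16 stayed under 2 CPM in each library and were not called in these comparisons. Wnt2, Wnt2b, Wnt8b, Wnt10a and Wnt10b had 3 to 85 counts over the 9 libraries and were not tested.

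**Figure D3:**
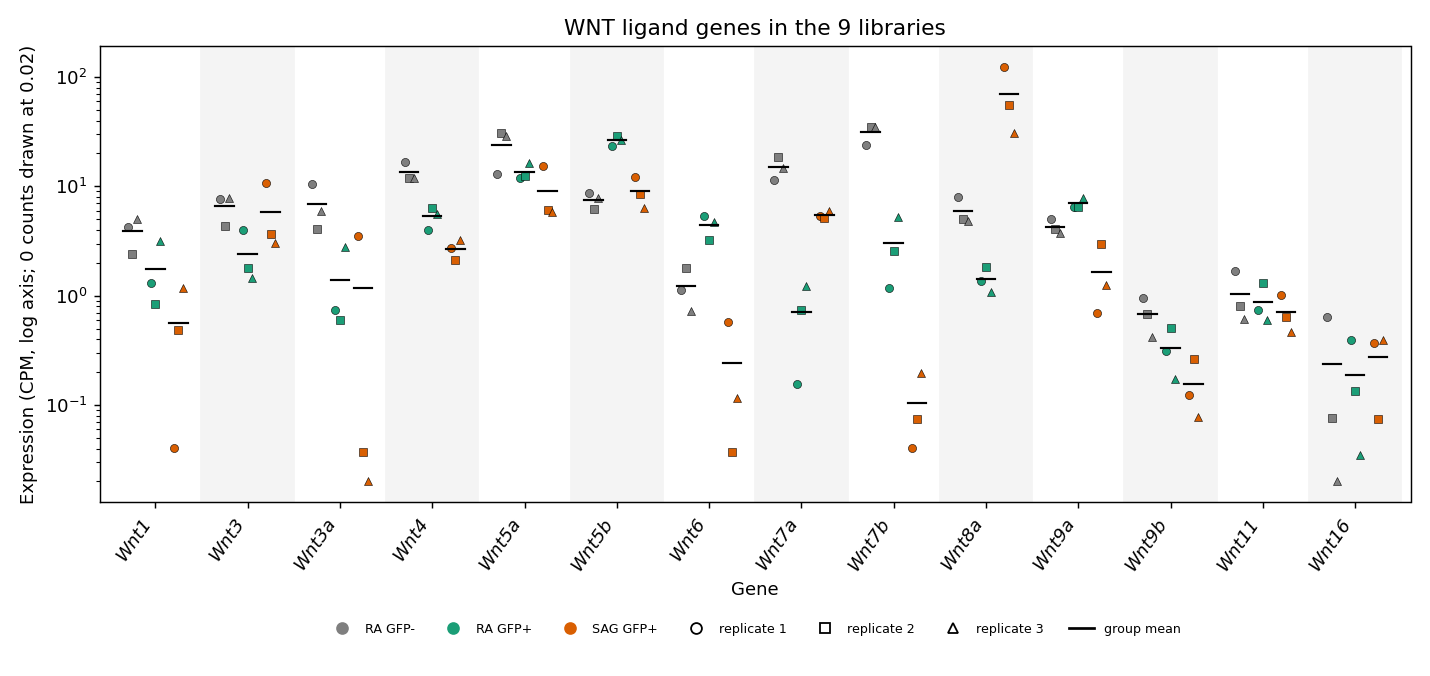
CPM (y axis, log scale) of the 14 tested WNT ligand genes in each library, with group means as short lines. Colours mark groups and symbols mark replicates. Wnt8a is highest in all 3 SAG GFP+ libraries, Wnt5b and Wnt6 are highest in RA GFP+ libraries, and Wnt7b descends from RA GFP- to SAG GFP+ libraries.

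Of 12 receptor genes tested, 6 rose by sort (Fzd2, Fzd4, Fzd6, Fzd7, Fzd8 and Lrp5) and 0 fell, where 8.49% of all tested genes rose and 8.43% fell. The summed level of the receptors was 131 to 163 CPM per kb in RA GFP-, 254 to 269 in RA GFP+ and 235 to 263 in SAG GFP+ libraries. Fzd7 and Fzd2 led in each group per length, with group means of 37.1 and 32.7 CPM per kb in RA GFP-, 67.2 and 107 in RA GFP+ and 83.0 and 67.4 in SAG GFP+ cells. In CPM without division by length, Fzd3 led in RA GFP- (311) and SAG GFP+ cells (530), and Fzd2 in RA GFP+ cells (394). Fzd2 and Fzd7 have no introns in the annotation, unlike Fzd3. Alignment without splitting reads across introns could thus favour them in this order, which was not tested. All 12 receptors stood above 1 CPM per kb in each group.

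Fzd2 (chromosome 11, 102604396 to 102608058, plus strand) stood at 119, 120 and 121 CPM in RA GFP-, 442, 390 and 349 in RA GFP+, and 270, 274 and 196 in SAG GFP+ libraries. RA GFP+ was the highest group without overlap. Fzd2 rose 3.29-fold by sort (log2 fold change 1.72, SE 0.14, adjusted p = 2.42e-05) and fell by 0.67 under SAG (SE 0.14, adjusted p = 0.00483). Fzd7 stood at 152, 165 and 187 CPM in RA GFP-, 309, 307 and 297 in RA GFP+, and 334, 400 and 395 in SAG GFP+ libraries. It rose by 0.86 by sort (SE 0.12, adjusted p = 0.000531), and its further difference under SAG was not called (0.30, SE 0.12, adjusted p = 0.0765, but 0.0426 without replicate 1 of RA GFP- and 0.0232 without replicate 1 of SAG GFP+). Fzd8, known from the anterior neural plate, stood at 21.5, 21.3 and 25.4 CPM in RA GFP-, 71.1, 75.3 and 72.6 in RA GFP+, and 8.35, 7.53 and 6.70 in SAG GFP+ libraries. Its spread within groups was small and the groups lay far apart. Fzd8 rose by 1.68 by sort (SE 0.14, adjusted p = 2.12e-05) and fell by 3.28 under SAG, a 9.70-fold difference (SE 0.15, adjusted p = 2.51e-07). Fzd5, which is in the same Frizzled subfamily as Fzd8, stood at 23.0, 23.8 and 27.1 CPM in RA GFP-, 30.8, 36.5 and 18.4 in RA GFP+, and 8.92, 9.55 and 10.1 in SAG GFP+ libraries. It was not called by sort (0.21, SE 0.22, adjusted p = 0.57) and fell by 1.59 under SAG (SE 0.23, adjusted p = 0.000458).

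Fzd4, Fzd6 and Lrp5 also rose. Fzd4 stood at 5.12, 9.30 and 8.18 CPM in RA GFP-, 11.3, 19.02 and 25.2 in RA GFP+, and 8.47, 10.002 and 11.6 in SAG GFP+ libraries, and rose by 1.30 by sort (SE 0.31, adjusted p = 0.0128, but 0.0515 without replicate 3 of RA GFP+). Its difference under SAG (-0.89, SE 0.30, adjusted p = 0.0529) passed without replicate 1 of RA GFP- (0.0415) or replicate 1 of RA GFP+ (0.0172). With all libraries in, it also passed without a low-count filter (0.00856), in DESeq2 (0.0191) and with either replicate block (0.00953 and 0.0193). In all, that difference passed under 6 of 16 alternatives. Fzd6 stood at 6.95, 4.72 and 7.54 CPM, 12.0, 10.9 and 13.8 CPM, and 16.4, 12.9 and 14.5 CPM in the same order of groups, and rose by 0.94 by sort (SE 0.22, adjusted p = 0.0129). The co-receptor gene Lrp5 stood at 57.5, 69.99 and 89.2 CPM in RA GFP-, 121, 116 and 126 in RA GFP+, and 103, 96.1 and 94.9 in SAG GFP+ libraries, and rose by 0.74 (SE 0.15, adjusted p = 0.00527). For Lrp5 and Fzd6 no RA GFP- library reached the lowest RA GFP+ library. The other co-receptor gene, Lrp6, gave 0.47 by sort (SE 0.18, adjusted p = 0.115, but 0.0292 without replicate 3 of RA GFP-) and Fzd1 gave 0.54 (SE 0.18, adjusted p = 0.0675, but 0.0406 without replicate 1 of SAG GFP+).

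Fzd3, Fzd9 and Fzd10 had other patterns. Fzd3, a receptor known from axon guidance and planar polarity, stood at 179, 380 and 375 CPM in RA GFP-, 166, 255 and 334 in RA GFP+, and 420, 586 and 584 in SAG GFP+ libraries. Replicate 1 was the lowest library of each group. Fzd3 rose by 1.07 in SAG GFP+ against RA GFP+ cells (SE 0.30, adjusted p = 0.0209), which missed the threshold without replicate 1 (0.0782) or 2 (0.0638) of RA GFP+ or replicate 2 (0.0615) or 3 (0.061) of SAG GFP+. Fzd9 stood at 11.2, 11.1 and 8.53 CPM in RA GFP-, 8.62, 9.01 and 10.4 in RA GFP+, and 18.7, 19.3 and 13.5 in SAG GFP+ libraries, and rose by 0.88 under SAG (SE 0.21, adjusted p = 0.00933). Fzd10, known from the dorsal neural tube, stood at 70.5, 76.6 and 61.7 CPM in RA GFP-, 40.5, 29.1 and 25.5 in RA GFP+, and 70.9, 14.4 and 11.6 in SAG GFP+ libraries. replicate 1 of SAG GFP+ reached the RA GFP- level, while replicates 2 and 3 lay below all RA libraries. With all libraries Fzd10 gave -1.13 by sort (SE 0.53, adjusted p = 0.182) and 0.02 under SAG (SE 0.53, adjusted p = 0.98). Without replicate 1 of SAG GFP+ the first was called (adjusted p = 0.00139) and the second became -1.27 (adjusted p = 0.0015).

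**Figure D4:**
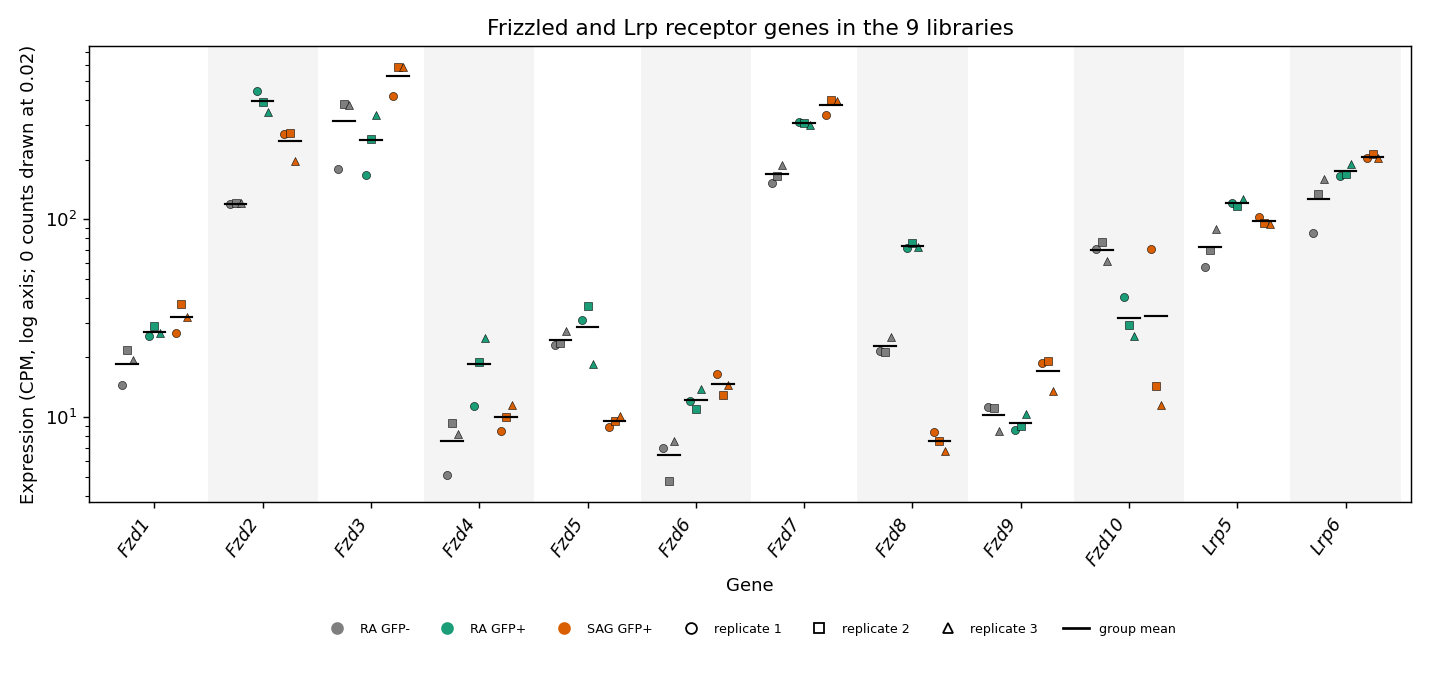
CPM (y axis, log scale) of the 12 receptor genes in each library, with group means as short lines. Fzd8 is highest in RA GFP+ (71.1 to 75.3 CPM) and lowest in SAG GFP+ libraries (6.70 to 8.35), and replicate 1 of SAG GFP+ (70.9) lies far from the other SAG GFP+ libraries in Fzd10.

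Secreted inhibitors were called in both directions. In RA GFP+ against RA GFP- cells 5 of 10 tested rose (Frzb, Dkk1, Dkk2, Dkk3 and Wif1) and Sfrp1 fell. Of all tested genes, 8.49% rose and 8.43% fell. Under SAG 7 fell (the same 5, Sfrp5 and Notum) and 2 rose (Sfrp1 and Sfrp4), where 14.8% of all genes fell and 9.78% rose. The summed level of the inhibitors was 134 to 188 CPM per kb in RA GFP-, 114 to 155 in RA GFP+ and 206 to 333 in SAG GFP+ libraries. Sfrp2 took 67.5 to 81.2% of that sum in RA GFP- and 41.9 to 68.7% in RA GFP+ libraries, and Sfrp1 took 76.5 to 82.9% in SAG GFP+ libraries.

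Sfrp1 (chromosome 8, 23411502 to 23449632, plus strand), a secreted Frizzled-related protein, stood at 87.5, 130 and 85.6 CPM in RA GFP-, 46.7, 62.6 and 67.1 in RA GFP+, and 689, 1028 and 1206 in SAG GFP+ libraries. Every SAG GFP+ library lay far above the highest RA library. Sfrp1 rose by 4.05 in SAG GFP+ against RA GFP+ cells, a 16.6-fold difference (SE 0.25, adjusted p = 2.37e-06). Its fall by sort (-0.78, SE 0.23, adjusted p = 0.0343) was lost without replicate 2 of RA GFP- (0.136), replicate 1 of RA GFP+ (0.129) or replicate 2 of RA GFP+ (0.0815). Sfrp2, of the same family, stood at 329, 194 and 233 CPM in RA GFP-, 103, 139 and 230 in RA GFP+, and 82.5, 98.7 and 107 in SAG GFP+ libraries. It was not called by sort (-0.68, SE 0.27, adjusted p = 0.111, but 0.0106 without replicate 3 of RA GFP+) or under SAG (-0.71, SE 0.27, adjusted p = 0.0761, but 0.0234 without replicate 1 of RA GFP+). In all, the former passed under 3 and the latter under 4 of 16 alternatives, with no low-count filter among them (0.00166 and 0.000519). Sfrp5 stood at 2.22, 3.58 and 2.74 CPM in RA GFP-, 2.19, 7.80 and 2.16 in RA GFP+, and 0.367, 0.112 and 0.467 in SAG GFP+ libraries, and fell by 3.67 under SAG (SE 0.64, adjusted p = 0.00154, and by 2.78 without replicate 2 of RA GFP+). Sfrp4 was low throughout, at 0.600, 0.343 and 0.914 CPM in RA GFP-, 0.196, 0.0672 and 0.174 in RA GFP+, and 0.896, 0.749 and 2.10 in SAG GFP+ libraries. It rose by 3.07 under SAG (SE 0.65, adjusted p = 0.00527, and by 2.48 without replicate 3 of SAG GFP+). By sort it gave -2.07 (SE 0.66, adjusted p = 0.0534), which passed without replicate 2 of RA GFP- (0.0492) or replicate 3 of SAG GFP+ (0.0445). Members of the Sfrp family thus moved in different directions under SAG.

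Dkk1, Dkk2 and Dkk3 were highest in RA GFP+ cells. Dkk1 (chromosome 19, 30545863 to 30549665, minus strand), which blocks Lrp5 and Lrp6, stood at 1.41, 0.381 and 0.266 CPM in RA GFP-, 26.8, 8.27 and 10.5 in RA GFP+, and 0.896, 0.262 and 0.195 in SAG GFP+ libraries. RA GFP- and SAG GFP+ overlapped, and all RA GFP+ libraries lay above both. Under SAG, Dkk1 fell by 5.07, a 33.6-fold difference (SE 0.75, adjusted p = 0.000534), with -4.38 without replicate 1 of RA GFP+ and -6.004 without replicate 1 of SAG GFP+. By sort it rose by 4.44 (SE 0.71, adjusted p = 0.00143), with 5.54 without replicate 1 of RA GFP- and 3.76 without replicate 1 of RA GFP+. Dkk3, a divergent member of the family, stood at 8.37, 7.43 and 5.82 CPM in RA GFP-, 55.2, 52.5 and 47.6 in RA GFP+, and 5.34, 7.23 and 8.76 in SAG GFP+ libraries. Its standard error was the smallest of the 5 inhibitors that rose by sort. The difference was 7.17-fold by sort (log2 fold change 2.84, SE 0.21, adjusted p = 1.23e-05) and -2.86 under SAG (SE 0.21, adjusted p = 6.46e-06). Dkk2 had 1 count over the RA GFP- libraries, in replicate 2, and stood at 0.588, 1.01 and 1.64 CPM in RA GFP+ and 0.0407, 0 and 0.389 in SAG GFP+ libraries. Its ratio of counts by sort was 88.6, with an exact 95% interval of 15.5 to 3537 that covers counting error only (adjusted p = 0.00682). Its fall under SAG (-2.88, SE 0.91, adjusted p = 0.039) was lost without replicate 2 of RA GFP- (0.0642), any RA GFP+ replicate (0.0542, 0.0935 and 0.127 for 1 to 3), or replicate 1 (0.095) or 2 (0.117, at -2.27) of SAG GFP+, and the fold change was -5.48 without replicate 3 of SAG GFP+. Dkk4 had 7 counts in all, each in RA GFP- libraries, and was not tested.

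Frzb and Wif1, which bind WNT proteins, were also highest in RA GFP+ cells. Frzb stood at 11.4, 20.0 and 17.2 CPM in RA GFP-, 57.8, 47.2 and 29.2 in RA GFP+, and 20.4, 7.23 and 10.2 in SAG GFP+ libraries. It rose by 1.47 by sort (SE 0.37, adjusted p = 0.0171), which missed the threshold without replicate 1 of RA GFP- (0.069) or replicate 1 (0.0682) or 2 (0.0555) of RA GFP+, and fell by 1.83 under SAG (SE 0.37, adjusted p = 0.00423). Wif1 stood at 0.953, 0.495 and 0.305 CPM in RA GFP-, 6.74, 1.92 and 2.82 in RA GFP+, and 0.163, 1.27 and 0.506 in SAG GFP+ libraries. RA GFP+ libraries lay above all others for both genes. Wif1 rose by 2.69 by sort (SE 0.70, adjusted p = 0.0205), which missed the threshold without replicate 2 (0.0739) or 3 (0.0718) of RA GFP- or replicate 1 of RA GFP+ (0.1, at 2.01). Under SAG it fell by 2.54 (SE 0.69, adjusted p = 0.0198), which was lost without replicate 1 of RA GFP+ (0.103, at -1.86) or replicate 3 of SAG GFP+ (0.0731) and was -3.46 without replicate 2 of SAG GFP+. Notum, an enzyme that removes the lipid of WNT proteins, stood at 16.7, 6.90 and 7.46 CPM in RA GFP-, 14.9, 4.40 and 7.29 in RA GFP+, and 3.42, 0.300 and 0.623 in SAG GFP+ libraries. Replicate 1 was its highest library in each group. Notum was not called by sort (-0.23, SE 0.68, adjusted p = 0.86) and fell by 2.62 under SAG (SE 0.75, adjusted p = 0.0248), by 2.02 and no longer called without replicate 1 of RA GFP+ (0.0981), by 4.23 without replicate 1 of SAG GFP+, and not called without replicate 2 (0.0727) or 3 (0.0915) of SAG GFP+. Of its exon bases, 38.1% lie opposite other annotated genes with 64 counts in all, against 1678 for Notum, and the strand setting of the counting is not given in the sources used here. The endoderm and mesenchyme marker sums given above were also highest in RA GFP+ libraries, as were Dkk1, Dkk2, Dkk3, Frzb and Wif1, and their part in these results was not tested.

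**Figure D5:**
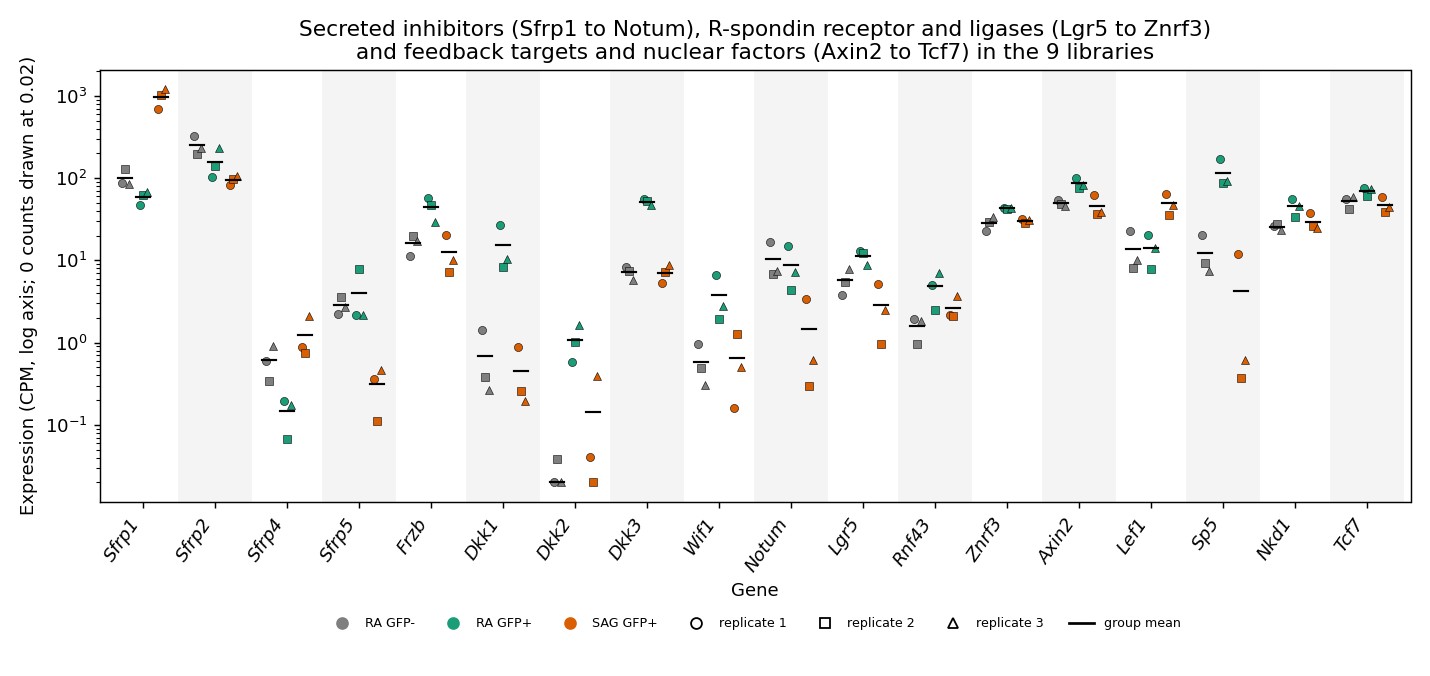
CPM (y axis, log scale, 0 counts drawn at 0.02) of tested inhibitors, of Lgr5, Rnf43 and Znrf3, and of feedback targets and nuclear factors in each library, with group means as short lines. Dkk1, Dkk3 and Sp5 peak in RA GFP+ libraries, Sfrp1 reaches 689 to 1206 CPM in SAG GFP+ libraries, and replicate 1 of SAG GFP+ (11.8 CPM) lies far above the other SAG GFP+ libraries in Sp5.

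The tested R-spondins, which enhance WNT signals, were called in no comparison with the low-count filter, no block and all libraries in. Rspo1, the highest of them per length, stood at 8.58, 6.36 and 3.58 CPM in RA GFP-, 7.84, 11.3 and 5.58 in RA GFP+, and 7.54, 1.91 and 2.18 in SAG GFP+ libraries. Rspo1, Rspo3 and Rspo4 gave adjusted p of 0.637, 0.32 and 0.951 by sort and 0.148, 0.931 and 0.21 under SAG. Without replicate 1 of SAG GFP+, Rspo1 (0.00593) and Rspo4 (0.0367) were called under SAG. With all libraries in, Rspo1 was called lower under SAG without a low-count filter (0.0164) and with a block over all 9 libraries (0.032). Rspo2 had 56 counts in all and was not tested. Of the genes they act through, Lgr5, a receptor for R-spondins, stood at 3.78, 5.45 and 7.96 CPM in RA GFP-, 13.2, 12.3 and 8.86 in RA GFP+, and 5.21, 0.974 and 2.49 in SAG GFP+ libraries. It was not called by sort (1.00, SE 0.47, adjusted p = 0.183), although those groups did not overlap, and it fell by 1.99 under SAG (SE 0.49, adjusted p = 0.0119, and by 2.70 without replicate 1 of SAG GFP+). Znrf3, a ligase that removes Frizzled receptors from the cell surface, stood at 22.8, 29.0 and 33.7 CPM in RA GFP-, 44.0, 42.2 and 43.3 in RA GFP+, and 31.9, 28.6 and 30.7 in SAG GFP+ libraries. The rise by sort (0.60, SE 0.15, adjusted p = 0.0186) was lost without replicate 2 of RA GFP- (0.0528) or replicate 1 (0.0637) or 2 (0.0585) of RA GFP+. Its fall under SAG (-0.51, SE 0.15, adjusted p = 0.0313) was lost without any RA GFP+ replicate (0.0945, 0.082 and 0.0691 for 1 to 3) or replicate 2 (0.127) or 3 (0.0756) of SAG GFP+. Its relative Rnf43 stood at 1.94, 0.953 and 1.83 CPM in RA GFP-, 5.10, 2.52 and 7.04 in RA GFP+, and 2.20, 2.14 and 3.70 in SAG GFP+ libraries. It rose by 1.63 by sort (SE 0.44, adjusted p = 0.0237), which missed the threshold without replicate 2 of RA GFP- (0.0855) or replicate 1 (0.0635) or 3 (0.0945) of RA GFP+.

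Of the 5 feedback targets and nuclear factors, Sp5, Axin2 and Nkd1 rose by sort and 0 fell, where 8.49% of all tested genes rose and 8.43% fell. Under SAG, Sp5, Axin2 and Tcf7 fell and Lef1 rose, where 14.8% of all genes fell and 9.78% rose. Sp5, Dkk1 and Axin2 were among the 12 members that were higher by sort and lower under SAG, and the 250 bases before their RefSeq starts (GRCm38.p6) are shown because these genes include wide changes (Sp5, Dkk1) and a widely used readout of beta-catenin signals (Axin2). The sequences were searched on both strands for forms of the TCF/LEF motif, which were the letters CTTTGAA, then the form with CTTTGAT, also the form with CTTTGTA and lastly the form with CTTTGTT. Capitals mark matches.
Sp5, chr2:70474673-70474922, plus strand: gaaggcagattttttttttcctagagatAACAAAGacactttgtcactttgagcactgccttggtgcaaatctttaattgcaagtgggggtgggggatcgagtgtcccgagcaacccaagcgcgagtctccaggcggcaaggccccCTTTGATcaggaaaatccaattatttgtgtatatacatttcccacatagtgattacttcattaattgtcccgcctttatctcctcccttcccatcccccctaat
Dkk1, chr19:30549497-30549746, minus strand: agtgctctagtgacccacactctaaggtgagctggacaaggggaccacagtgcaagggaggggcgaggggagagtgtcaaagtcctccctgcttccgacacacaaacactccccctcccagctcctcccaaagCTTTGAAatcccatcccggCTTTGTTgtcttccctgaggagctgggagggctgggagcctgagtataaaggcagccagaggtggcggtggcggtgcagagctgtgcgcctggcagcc
Axin2, chr11:108920099-108920348, plus strand: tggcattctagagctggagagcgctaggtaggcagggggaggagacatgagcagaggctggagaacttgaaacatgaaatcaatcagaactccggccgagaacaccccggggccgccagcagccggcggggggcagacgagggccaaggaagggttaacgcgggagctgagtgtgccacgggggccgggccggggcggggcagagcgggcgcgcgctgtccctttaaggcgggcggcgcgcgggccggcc
Sp5 and Dkk1 each held 2 matches, none of which overlapped, and the shown Axin2 window held 0. In Sp5 they lay 222 to 216 bases (on the opposite strand) and 104 to 98 bases before the start, and in Dkk1 117 to 111 and 98 to 92 bases before it. The GENCODE bounds of Dkk1 reach 30549665, beyond its RefSeq start, so both Dkk1 matches lie within the gene as GENCODE places it. RefSeq windows were at hand for 35 members, of which 4 held a match (Sp5, Dkk1, Fzd7 and Wnt11), or 11.4%. Of 32851 windows of the same length for all genes, 14.8% held a match and 1.43% held 2 or more. A match describes letters in a window, not a bound site.

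Sp5 (chromosome 2, 70474923 to 70477729, plus strand), a transcription factor gene known as a direct target of beta-catenin, had the highest level per length of the 5 in RA GFP+ cells. It stood at 20.1, 9.30 and 7.54 CPM in RA GFP-, 169, 88.2 and 91.6 in RA GFP+, and 11.8, 0.375 and 0.623 in SAG GFP+ libraries. All RA GFP+ libraries lay above all others, and replicate 1 was the highest of each group. Its difference by sort was 9.42-fold (log2 fold change 3.24, SE 0.87, adjusted p = 0.0237), which missed the threshold without replicate 2 (0.0887) or 3 (0.0784) of RA GFP- or replicate 1 of RA GFP+ (0.0743). With the replicate block in the 6 RA libraries its adjusted p was 1.75e-07. Under SAG it fell by 4.78 (SE 0.95, adjusted p = 0.00358), and by 7.84 without replicate 1 of SAG GFP+. Sp5 was 1 of 5 members (with Axin2, Lef1, Notum and Dkk1) whose highest library was replicate 1 in each of the 3 groups. That is 10.6% of the 47, and 11.1% of all tested genes had that order.

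Axin2, a scaffold of the complex that degrades beta-catenin, stood at 53.7, 48.6 and 45.5 CPM in RA GFP-, 100.1, 76.2 and 82.1 in RA GFP+, and 62.5, 37.1 and 39.2 in SAG GFP+ libraries. RA GFP+ libraries lay above all others. Under SAG, Axin2 fell by 0.90 (SE 0.20, adjusted p = 0.00619). By sort it rose by 0.81 (adjusted p = 0.0143, but 0.0505 without replicate 3 of RA GFP- and 0.0638 without replicate 1 of RA GFP+). Nkd1, which binds Dishevelled, stood at 26.0, 27.7 and 23.3 CPM in RA GFP-, 56.3, 34.0 and 46.5 in RA GFP+, and 38.2, 26.1 and 24.8 in SAG GFP+ libraries. It rose by 0.83 by sort (SE 0.21, adjusted p = 0.019, but 0.0642 without replicate 3 of RA GFP- and 0.0875 without replicate 1 of RA GFP+) and gave -0.62 under SAG (SE 0.21, adjusted p = 0.0522, but 0.0267 without replicate 2 of RA GFP+ and 0.013 without replicate 1 of SAG GFP+). The difference under SAG passed under 6 of 16 alternatives in all, among them no low-count filter (0.0129) and DESeq2 (0.0271). Lef1 and Tcf7 encode DNA-binding partners of beta-catenin. Lef1 stood at 22.6, 8.04 and 10.1 CPM in RA GFP-, 20.3, 7.90 and 14.2 in RA GFP+, and 64.6, 36.0 and 46.9 in SAG GFP+ libraries. SAG GFP+ libraries lay above all others, and Lef1 rose by 1.80 under SAG (SE 0.41, adjusted p = 0.00807), while it was not called by sort (0.05, SE 0.41, adjusted p = 0.952). Tcf7 stood at 55.04, 42.7 and 59.1 CPM in RA GFP-, 75.3, 60.3 and 74.2 in RA GFP+, and 58.9, 38.7 and 44.5 in SAG GFP+ libraries, and fell by 0.56 under SAG (SE 0.18, adjusted p = 0.0406). That call did not survive leaving out replicate 1 of RA GFP- (0.0507), replicate 1 (0.129) or 3 (0.101) of RA GFP+, or replicate 2 (0.178) or 3 (0.13) of SAG GFP+. Lef1 thus moved against the other called genes of its role.

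In SAG GFP+ against RA GFP- cells, where both the sort and the medium differ, several of the inhibitors and targets that were higher by sort were not called. Dkk1 (-0.63, SE 0.77, adjusted p = 0.577), Dkk3 (-0.02, SE 0.21, adjusted p = 0.957), Frzb (-0.36, SE 0.37, adjusted p = 0.503) and Axin2 (-0.09, SE 0.19, adjusted p = 0.76) were among them, which does not show that their levels were alike. Of all tested genes, 12% were higher and 16.5% lower here. Of 14 tested ligands 8 were lower (Wnt1, Wnt4, Wnt5a, Wnt6, Wnt7a, Wnt7b, Wnt9a and Wnt9b) and Wnt8a was higher (3.55, SE 0.45, adjusted p = 0.000158, and 2.87 without replicate 1 of SAG GFP+). Wnt1, known from the dorsal midline, was among those lower (-2.77, SE 0.76, adjusted p = 0.0179), with 4.27, 2.40 and 5.02 CPM in RA GFP- and 0.0407, 0.487 and 1.17 in SAG GFP+ libraries. That call did not survive leaving out replicate 1 of RA GFP- (0.051) or replicate 2 of SAG GFP+ (0.0691), and the value was -3.82 without replicate 3 of SAG GFP+. Roof plate and dorsal markers summed to 216 to 270 CPM in RA GFP-, 95 to 166 in RA GFP+ and 32.3 to 53.7 in SAG GFP+ libraries, and their part in this difference was not tested. Of the 8 lower ligands, only Wnt4 and Wnt7b kept their call whichever library was left out. Wnt5a lost it without replicate 2 (0.0732) or 3 (0.055) of RA GFP- or replicate 2 (0.082) or 3 (0.08) of SAG GFP+. Wnt6 lost it without replicate 1 (0.0523) or 2 (0.0842) of RA GFP- or replicate 2 (0.0759) or 3 (0.09) of SAG GFP+. Wnt7a lost it without replicate 2 of RA GFP- (0.0825) or replicate 2 (0.0777) or 3 (0.0538) of SAG GFP+. Wnt9a lost it without replicate 1 (0.0973) or 2 (0.0608) of RA GFP- or replicate 1 (0.0521) or 3 (0.109) of SAG GFP+, and Wnt9b without the same libraries (0.106, 0.0687, 0.072 and 0.111). Of 12 receptors 7 were higher (Fzd1, Fzd2, Fzd6, Fzd7, Fzd9, Lrp5 and Lrp6) and Fzd5 and Fzd8 lower, beside the same 12% and 16.5% of all genes. Lrp5 (0.44, SE 0.15, adjusted p = 0.0446) lost its call in 10 of 16 alternatives, among them every left-out library but replicate 3 of RA GFP- (0.0594 to 0.117). Fzd9 (0.74, SE 0.21, adjusted p = 0.0196) lost it without replicate 3 of RA GFP- (0.0582) or replicate 2 of SAG GFP+ (0.0738).

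Several values of SAG GFP+ against RA GFP- cells changed with replicate 1 of SAG GFP+ left out, and some of these with the model too. Without replicate 1 of SAG GFP+, 30 members were called, of which 20 were among the 23, and 33.8% of all genes were. Sp5 went from -1.54 (SE 0.87, adjusted p = 0.21) to -4.60 (0.000246), Fzd10 from -1.11 (SE 0.53, adjusted p = 0.141) to -2.40 (2.81e-05) and Lgr5 from -0.99 (SE 0.48, adjusted p = 0.15) to -1.69 (0.0129). Rspo1 (-1.57, adjusted p = 0.0155), Rspo4 (1.72, 0.0267) and Fzd3 (0.94, 0.0387) were also called without it. Notum, which was lower (-2.85, SE 0.75, adjusted p = 0.0153), gave -4.46 without it and lost its call without replicate 1 of RA GFP- (0.0658) or replicate 3 of SAG GFP+ (0.0609). Wnt6 gave -3.89 without it. With all libraries in and no low-count filter, Sp5 (adjusted p = 0.000218), Fzd10 (0.000196), Fzd3 (8.62e-05) and Lgr5 (0.0292) were called as well. With the replicate block in these 2 groups, Sp5 (0.0185), Fzd10 (0.0297), Fzd3 (0.00518) and Wnt3a (0.0207) were called too. Wnt5a (0.0527), Wnt6 (0.0523) and Lrp5 (0.0653) lost their call with that block.

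Other genes of the pathway came from a list of 64 that held no member. By sort 18 of 62 tested were higher and 6 lower (38.7% called, against 16.9% of all genes). Under SAG 9 were higher and 7 lower (25.8%, near the 24.5% of all genes). In all, 9 were called without replicate 2 of RA GFP+ and 25 without replicate 1 of SAG GFP+, where 15.8% and 28.6% of all genes were. The list placed 14 genes in the branch that does not use beta-catenin, an assignment by name that was not tested. These gave 7 higher (Mcc among them) and 2 lower by sort, where 8.49% of all genes were higher and 8.43% lower. Under SAG they gave 5 higher and 1 lower, against 9.78% and 14.8% of all genes. Prickle1, a planar polarity gene, stood at 12.2, 16.7 and 8.75 CPM in RA GFP-, 42.1, 55.9 and 50.6 in RA GFP+, and 56.7, 46.1 and 49.5 in SAG GFP+ libraries (by sort 1.98, SE 0.22, adjusted p = 0.000134). Vangl1, of the same branch, rose by 1.17 (SE 0.17, adjusted p = 0.000717). Draxin, a secreted guidance protein that also antagonises WNT signals, fell by 2.29 by sort (SE 0.32, adjusted p = 0.000594). Porcn, the enzyme that attaches the lipid to WNT proteins, stood at 44.4, 31.1 and 54.97 CPM in RA GFP-, 8.04, 10.7 and 17.7 in RA GFP+, and 15.3, 22.7 and 18.1 in SAG GFP+ libraries, and fell by 1.84 by sort (SE 0.30, adjusted p = 0.00148). RA GFP- libraries lay above all others for Porcn, whose difference under SAG (0.62, SE 0.29, adjusted p = 0.146) passed without replicate 3 of RA GFP+ (0.0229). Under SAG the polarity cadherin genes Celsr1 (1.69, SE 0.18, adjusted p = 5.57e-05) and Celsr3 (2.54, SE 0.28, adjusted p = 7.45e-05) rose. Celsr1 stood at 51.2, 59.1 and 80.8 CPM in RA GFP-, 120, 148 and 173 in RA GFP+, and 498, 470 and 456 in SAG GFP+ libraries. Ctnnb1, which encodes beta-catenin, fell by 0.63 under SAG (SE 0.11, adjusted p = 0.00142) and had risen by 0.47 by sort (SE 0.11, adjusted p = 0.0109, but 0.0555 without replicate 2 of RA GFP+). The beta-catenin cofactor gene Bcl9l fell by 0.79 under SAG (SE 0.18, adjusted p = 0.0085).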

How the data were processed

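RNA of 9 sorted cell libraries (3 groups of 3) was sequenced. The authors deposited read counts per gene as 1 table. Per the submitters' processing notes, Trim Galore 0.5.0, Bowtie2 2.3.4.1, featureCounts of Subread 1.6.2 and GRCm38 were used. The strand setting of counting and the annotation release are not given here, and Bowtie2 does not split reads across introns, which can lower counts of genes with short exons. Symbols and exon lengths came from GENCODE, release M21, which named 54495 of the 54532 deposited gene IDs.

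Counts were tested in edgeR 4.0.16 (R 4.3.3) with TMM scaling, a minimum count of 10 (filterByExpr) and 1 quasi-likelihood fit of the 9 libraries with a mean per group. Genes were called at an adjusted p under 0.05 (Benjamini-Hochberg). The standard error is the absolute log2 fold change over the square root of F. CPM uses TMM-scaled totals of tested genes. The script was tested on simulated data. Total counts per library limit the precision of genes with few counts. The p-values weigh a group difference against the spread between these replicates, and the labels do not say whether these were grown on separate days. Same-numbered RA libraries deviated together from their group means over genes (r = 0.273, 0.307 and 0.347), so the numbers were taken to pair the RA samples. The pairing rests on this check, not on the labels. Alternatives were DESeq2 1.42.0 (with RLE size factors also within edgeR), no filter or a minimum count of 50, fits of only the 2 groups, the replicate block and leaving out each library.

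Values in every library are given for members called in either of the first 2 comparisons that reach 1 CPM in their highest group, at most 8 per role and comparison by adjusted p, and for the leading member of each role per length. Others were named after their values were seen, for their library dependence. From the pathway list, the 2 called genes of smallest adjusted p in each direction are named. Members and lists were chosen with earlier results of these data known.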

Additional observations from a re-analysis of the deposited data

How the results depend on the processing

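Over the alternatives to each called member value there were 1160 recomputed values, all in the same direction as the reported one, and 1061 were still called. Of the called members, 13 of 23 by sort, 20 of 27 in SAG GFP+ against RA GFP+ and 14 of 23 in SAG GFP+ against RA GFP- cells kept their call under every alternative run. Leaving out 1 library at a time gave 15 to 27, 22 to 35 and 16 to 30 called members in these comparisons. Of all genes, 10.3 to 19.3%, 15.8 to 28.6% and 19.4 to 33.8% were then called. The lowest count by sort, 15, came without RA GFP+ replicate 1. Fzd10 in SAG GFP+ against RA GFP+ cells turned from 0.02 to -1.27 without SAG GFP+ replicate 1, which held 70.9 CPM of it, within a range of -1.27 to 0.43 over the left-out libraries. Without a low-count filter 31, 36 and 29 members were called (11.9, 15.8 and 18.9% of all genes). With a minimum count of 50 there were 21, 24 and 22 (18.7, 26.8 and 30.5% of all genes). DESeq2 called 25, 30 and 24 (20.7, 29.1 and 33% of all genes), and RLE size factors left the counts at 23, 27 and 23 (17, 24.6 and 28.6%).

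With the replicate block in the 6 RA libraries, 34 members and 5240 genes were called by sort, against 23 and 2838 without it. In SAG GFP+ against RA GFP+ cells the same-numbered correlations were 0.111, -0.082 and 0.182, and those of other pairs ran from -0.234 to 0.152. The labels do not say what a number shares, so pairing there was neither shown nor excluded. The block there gave 29 members (28.8% of all genes), with Wnt4 (adjusted p = 0.0624) and Wif1 (0.0542) lost and 4 gained. In SAG GFP+ against RA GFP- cells (0.175, -0.022 and 0.242) it gave 24 members (29.2% of all genes), with 3 lost and 4 gained. A block over all 9 libraries gave 29, 32 and 27 (22.7, 32 and 36.8% of all genes). Over all genes, the calls by sort fell to 1783 without RA GFP+ replicate 2. The cause of these changes was not tested.

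With 3 libraries a group, genes with few counts have wide intervals: Wnt2, Wnt10a and Dkk4 had 3, 6 and 7 counts in all. Sorted cells from SAG medium were GFP+ only here, so the medium and the sort cannot be told apart in SAG GFP+ against RA GFP- cells. In SAG GFP+ against RA GFP+ cells, the loss of RA and the addition of SAG cannot be told apart.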
